A study of Mus musculus with 1392 samples.

Results

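Open chromatin was examined at the genomic windows of 4 genes of the megakaryocyte lineage, Itga2b, Itgb3, Gfi1b and Zfpm1, in single haematopoietic stem cells of young and old mice. The members were all peaks of the deposited count table that overlap an mm9 window around one of these genes, chr11:102295000-102350000 for Itga2b, chr11:104450000-104550000 for Itgb3, chr2:28430000-28500000 for Gfi1b and chr8:124790000-124880000 for Zfpm1. These windows held 69 of the 115295 peaks in the table, with 11 at Itga2b, 19 at Itgb3, 14 at Gfi1b and 25 at Zfpm1. The cells came from bone marrow of C57BL/6 mice and were sorted as LSK cells (no lineage markers, with Sca-1 and Kit) that carry CD150 and Vwf and lack CD48 and CD34. None of the 4 gene products studied here is named in that sort. Both ages share the strain, the tissue and the sort, no other allele or treatment is named in the labels, and the ages in months are not given there. Each sample is 1 cell and was profiled by a plate-based form of ATAC-seq, in which a transposase inserts sequencing adapters into accessible DNA. The 1392 cells carry 5 set numbers in their titles, with 332 young cells in 2 sets and 1060 old cells in 3 sets. The labels do not state what a set stands for, whether 1 mouse, several mice or 1 plate, so the spread between sets may be technical, and age cannot be told apart from the preparation of a set.

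Megakaryocytes are the marrow cells that shed platelets, and part of the stem cell pool marked by Vwf is known to be biased towards making them. Itga2b encodes integrin alpha-IIb (CD41) and Itgb3 its partner integrin beta-3 (CD61), and the dimer is the fibrinogen receptor through which platelets aggregate. Gfi1b encodes a zinc finger repressor required for red cell and megakaryocyte development, and Zfpm1 encodes FOG-1, a cofactor that GATA factors need in the same lineages. Peaks in and around such genes are where promoters and enhancers are usually sought, but accessibility is not expression, and RNA was not analysed here.

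The promoters are shown because GATA, ETS and GFI1 family factors are the regulators best known at megakaryocyte genes. RefSeq promoters were found for 3 of the 4 genes, Itga2b, Gfi1b and Zfpm1, and the 250 bases before each annotated start are printed 5′ to 3′ on the gene's strand. They lie at chr11:102469884-102470133 on the minus strand, chr2:28621983-28622232 on the minus strand and chr8:122281891-122282140 on the plus strand of GRCm38.p6, a build whose positions cannot be set beside the mm9 peaks. Capitals mark matches, on either strand, to the GATA core GATAA, the ETS core GGAAG and the GFI1 family core AATC.
Itga2b: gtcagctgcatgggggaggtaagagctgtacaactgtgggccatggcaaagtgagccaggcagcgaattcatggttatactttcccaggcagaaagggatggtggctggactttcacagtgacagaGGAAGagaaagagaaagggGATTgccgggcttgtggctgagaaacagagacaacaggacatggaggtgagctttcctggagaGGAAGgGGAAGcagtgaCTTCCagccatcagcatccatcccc
Gfi1b: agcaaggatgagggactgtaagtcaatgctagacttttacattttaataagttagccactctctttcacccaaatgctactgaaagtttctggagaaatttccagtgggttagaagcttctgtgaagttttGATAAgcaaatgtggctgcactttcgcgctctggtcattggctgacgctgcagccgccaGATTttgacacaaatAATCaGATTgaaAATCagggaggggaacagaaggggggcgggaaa
Zfpm1: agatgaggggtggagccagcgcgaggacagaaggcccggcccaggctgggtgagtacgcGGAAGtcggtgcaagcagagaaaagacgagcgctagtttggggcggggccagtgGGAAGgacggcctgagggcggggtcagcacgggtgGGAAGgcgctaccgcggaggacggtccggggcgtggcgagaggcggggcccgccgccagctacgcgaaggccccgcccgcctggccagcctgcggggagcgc

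The 3 promoters hold different letters. The Itga2b promoter (54.0% G and C) had 4 GGAAG matches, 3 of them within 42 bases of the start, 1 AATC match and no GATAA. The Gfi1b promoter (44.4% G and C) had 1 GATAA match, 119 bases before the start, and 4 AATC matches, 60, 45, 40 and 33 bases before it. GFI1B is itself a member of the family that binds this core. The Zfpm1 promoter (73.2% G and C) had 3 GGAAG matches, the farthest of which lies in the longer ETS motif CGGAAG, and neither GATAA nor AATC. The longer GATA motif AGATAA was in none of the 3, and the E-box CANNTG occurred 2 times in Itga2b, 2 times in Gfi1b and not in Zfpm1. Searched on both strands in the same way, GATAA occurred in 22.58% of 32851 promoters, AGATAA in 9.99%, GGAAG in 64.07%, CGGAAG in 13.59%, AATC in 69.02% and CANNTG in 66.22%. GATAA overlaps AGATAA and GGAAG overlaps CGGAAG by construction. A match describes letters in this window and does not show that a factor binds there.

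The table held 11698185 counts, from 1159957 to 4181770 per set, and the median count per cell ran from 3604.5 in old 3 to 11807 in young 2. The 69 peaks made up 0.0598% of the peaks and held 9183 counts, or 0.0785% of the total. The share taken by the 4 loci was 0.0775% and 0.0754% in young 1 and young 2 against 0.0822%, 0.0758% and 0.0781% in old 1, old 2 and old 3. Old 1 and old 3 had the highest shares and young 2 the lowest, with old 2 between the young sets. The median width of a member peak was 462 bp, with a maximum of 2189 bp, against 417 bp over all peaks, and 36.23% of them were over 700 bp wide, against 25.48% of all peaks. The windows are longer than the genes, which RefSeq lists at 16587 bp for Itga2b, 62477 bp for Itgb3, 12533 bp for Gfi1b and 56007 bp for Zfpm1. No mm9 annotation was used here, so peaks were not assigned to exons, introns or promoters. Some may lie in or near the coding neighbours, which are Fam171a2 and Gpatch8 at Itga2b, Myl4 and Efcab13 at Itgb3, Gtf3c5 and Tsc1 at Gfi1b, and Zfp469 and Trhr2 at Zfpm1.

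Accessibility was uneven along all 4 windows. Peaks covered 13.3% of the Itga2b window, 10.87% of the Itgb3 window, 12.26% of the Gfi1b window and 16.62% of the Zfpm1 window. The 3 peaks with most counts held 60.55% of the counts at Itga2b, 51.48% at Gfi1b, 43.84% at Itgb3 and 31.91% at Zfpm1. It took 3 of 11 peaks to reach 50% of the counts at Itga2b, 3 of 14 at Gfi1b, 4 of 19 at Itgb3 and 7 of 25 at Zfpm1, so the number needed moved with the number of peaks in the window. Across the 69 peaks, the order by mean level in young sets was close to that in old sets (Spearman's rho 0.926 over 69 peaks, which share the libraries and their depth), and wider peaks held more counts (rho 0.809).

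**Figure D1:**
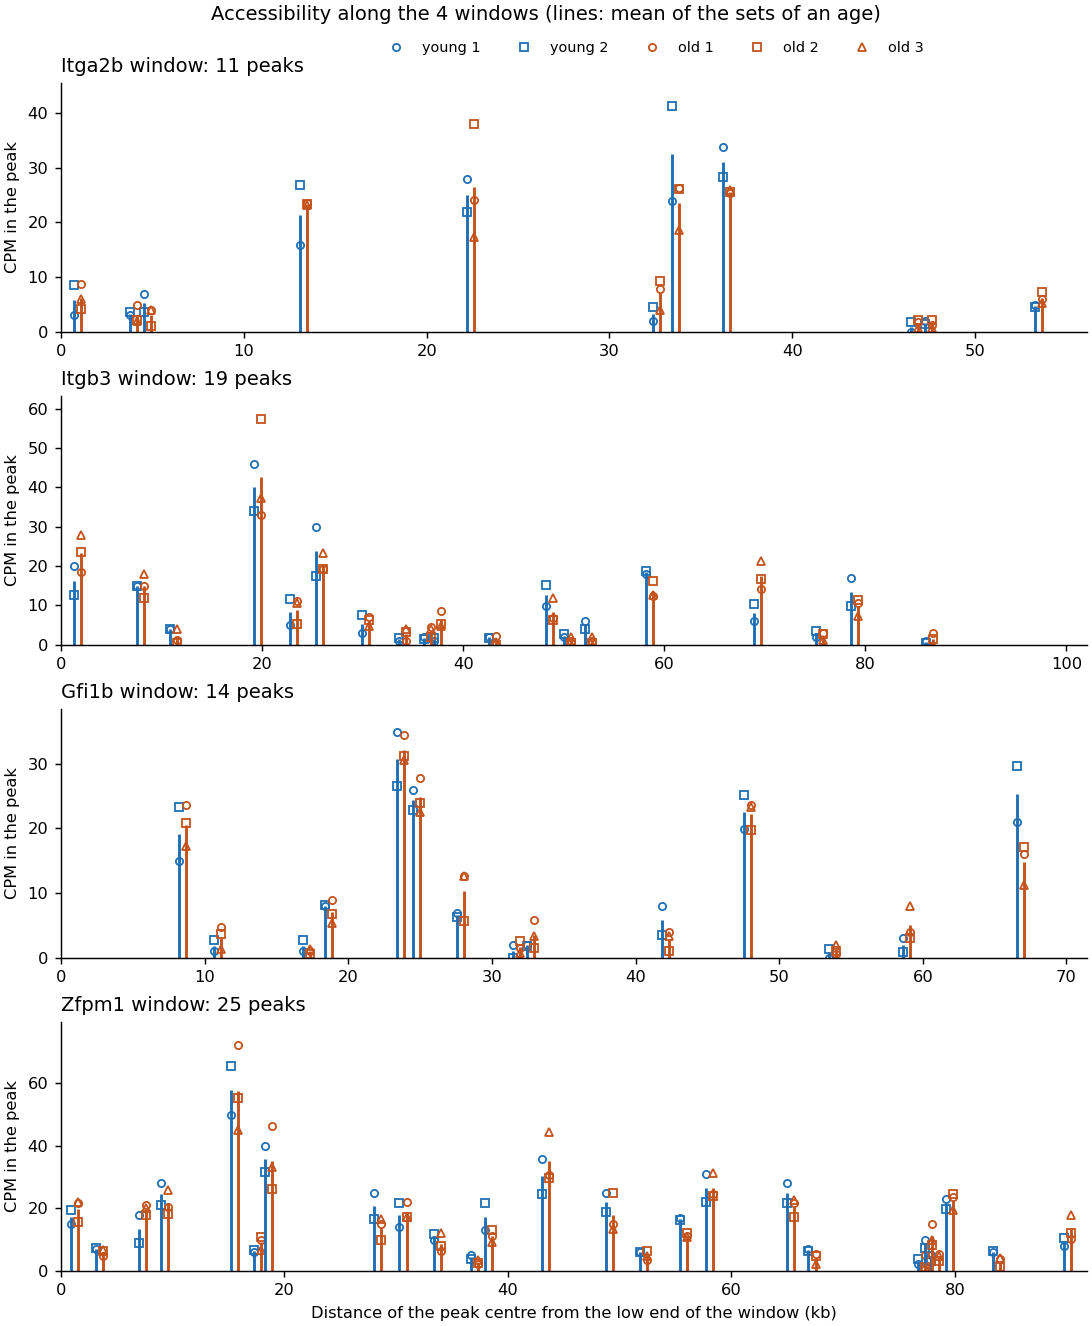
Accessibility of every member peak along the 4 windows. The horizontal axis is the distance of the peak centre from the low end of the window in kb, the vertical axis is CPM (counts scaled to 1000000 per set), vertical lines are the means of the young (blue) and old (orange) sets, and symbols are single sets. The same few peaks stand high in both ages, and Zfpm1 has the most peaks, 25.

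Per kb of peak, Zfpm1 was the most accessible locus and the other 3 could not be ordered. Levels are given here as CPM per kb of peak, where CPM is the count scaled to a TMM-adjusted total of 1000000 per set. Zfpm1 had 28.98 and 26.8 CPM per kb in young 1 and young 2 against 28.5, 24.7 and 27.0 in old 1, old 2 and old 3. Itga2b had 16.9 and 19.99 in the young sets against 18.3, 19.3 and 14.7 in the old sets. Gfi1b had 17.3 and 18.0 in the young sets against 19.6, 16.2 and 16.6 in the old sets. Itgb3 had 17.5 and 16.0 in the young sets against 15.9, 17.5 and 18.1 in the old sets. The lowest set of Zfpm1 lay above the highest set of every other locus, whereas Itga2b (mean 17.8 over the 5 sets), Gfi1b (17.6) and Itgb3 (17.0) overlapped one another.

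The age comparison asks whether chromatin at megakaryocyte genes is more or less open in old than in young Vwf-marked stem cells. Of the 69 peaks, 47 had enough counts to be tested, and 0 of the 47 had an adjusted p under 0.05 (quasi-likelihood test of edgeR on the sums of counts in each set), where 3.17% of the 58167 tested peaks of the table were called. At an unadjusted p under 0.05 there were 5 member peaks, or 10.64% of those tested, against 15.44% of all tested peaks. DESeq2 was fitted with no count filter beforehand, and called 0 of the 69 members and 423 of the 115227 peaks fitted. Not every fitted peak was given an adjusted p. The Itgb3 peak at chr11:104487349-104487637 had none, so not all 69 members could be called by DESeq2. An unadjusted p under 0.05 was given to 4 members by DESeq2. The median log2 fold change of old over young was 0.02 in the members and -0.01 over all tested peaks, and 24 of the 47 were above 0. The sets of one age all lay above those of the other in 11 of the 47 (old above in 3 and below in 8), or 23.4%, against 33.15% of all tested peaks. The count filter itself favoured some of these separations. The peaks at chr11:102348283-102348681 and chr11:104487349-104487637, with old above, reached it through old sets alone. The peak at chr8:124873619-124873924, with old below, reached it through young sets alone. The 22 peaks not tested, 4 at Itga2b, 8 at Itgb3, 7 at Gfi1b and 3 at Zfpm1, had only 10 to 45 counts each over all cells. With no count filter all 69 were tested, and 0 were called by edgeR, with 8 at an unadjusted p under 0.05. That setting called 2583 of 115227 peaks in all.

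**Figure D2:**
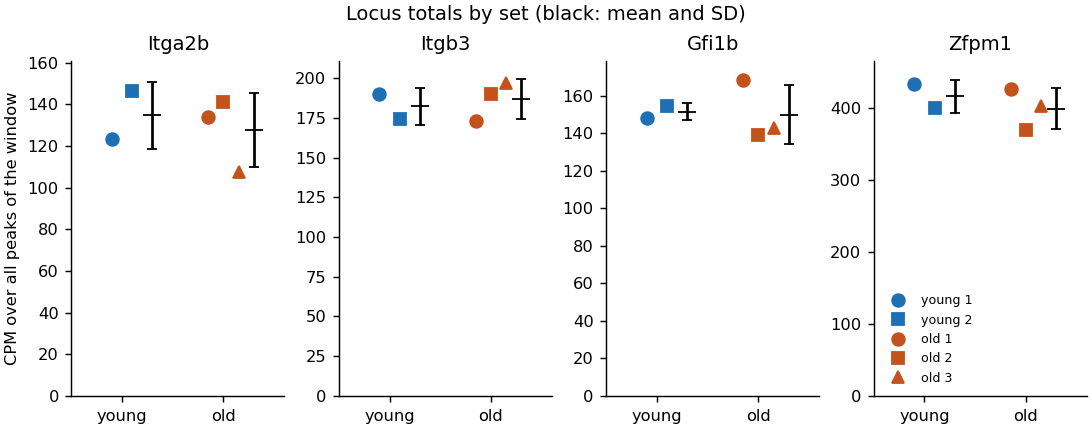
CPM summed over all peaks of each window, by set, with the mean and SD of each age in black and a vertical axis from 0. The sets of the 2 ages overlap at each of the 4 loci, for example 123.5 and 146.3 in the young sets against 107.6 to 141.2 in the old sets at Itga2b.

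The summed signal of each locus differed between ages by less than the spread between sets. The integrin genes come first. Itga2b held 123.5 and 146.3 CPM in young 1 and young 2 against 134.03, 141.2 and 107.6 CPM in old 1, old 2 and old 3, so old 3 was the lowest and young 2 the highest, and the ages overlapped. The means were 134.9 ± 16.1 in young (SD, n = 2) and 127.6 ± 17.7 CPM in old sets (SD, n = 3). Fold changes come from the edgeR fit to the counts and not from these means. For Itga2b the log2 fold change was -0.08 ± 0.195 (SE, edgeR adjusted p = 0.891). Itgb3 held 190.3 and 174.1 CPM in the young sets against 172.9, 190.2 and 197.2 CPM in the old sets, again with overlap. Its means were 182.2 ± 11.4 in young (SD, n = 2) and 186.7 ± 12.5 CPM in old sets (SD, n = 3). For Itgb3 the fitted log2 fold change was 0.04 ± 0.19 (SE, edgeR adjusted p = 0.956).

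The regulators showed the same picture. Gfi1b held 148.4 and 154.8 CPM in the young sets against 168.4, 139.1 and 142.8 CPM in the old sets, with both the highest and the lowest value in old. Its means were 151.6 ± 4.51 in young (SD, n = 2) and 150.1 ± 16.0 CPM in old sets (SD, n = 3). For Gfi1b the fitted log2 fold change was -0.01 ± 0.192 (SE, edgeR adjusted p = 0.988). Zfpm1 held 433.4 and 400.7 CPM in the young sets against 426.5, 369.4 and 403.8 CPM in the old sets, where old 2 was the lowest and the ages overlapped. Its means were 417.03 ± 23.1 in young (SD, n = 2) and 399.9 ± 28.8 CPM in old sets (SD, n = 3). For Zfpm1 the fitted log2 fold change was -0.06 ± 0.189 (SE, edgeR adjusted p = 0.927).

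The intervals give the range of change that the edgeR fit allowed under the main setting alone. The 95% interval of the ratio of old to young was 0.719 to 1.24 at Itga2b, 0.787 to 1.34 at Itgb3, 0.76 to 1.296 at Gfi1b and 0.738 to 1.25 at Zfpm1. Changes within these ranges could not be told from no change with 2 and 3 sets. The sign of each of the 4 log2 fold changes turned under at least 1 other setting. The farthest such value was at Gfi1b, 0.42 with cells thinned to 1 depth (edgeR adjusted p = 0.596). It lies above the upper end of the main Gfi1b interval, 0.374 in log2, so larger changes are not excluded. Pairs of loci were compared as well. The log2 ratio of one locus to another differed between old and young by -0.12 for Itga2b to Itgb3, the integrin pair, and by 0.04 for Gfi1b to Zfpm1, the regulator pair (exact two-sided permutation over sets, p = 0.7 and 0.6, both 0.9 adjusted over the 6 pairs). With 2 sets against 3 this test cannot go below 0.1, so here and below it cannot pass and its p shows no stability.

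**Figure D3:**
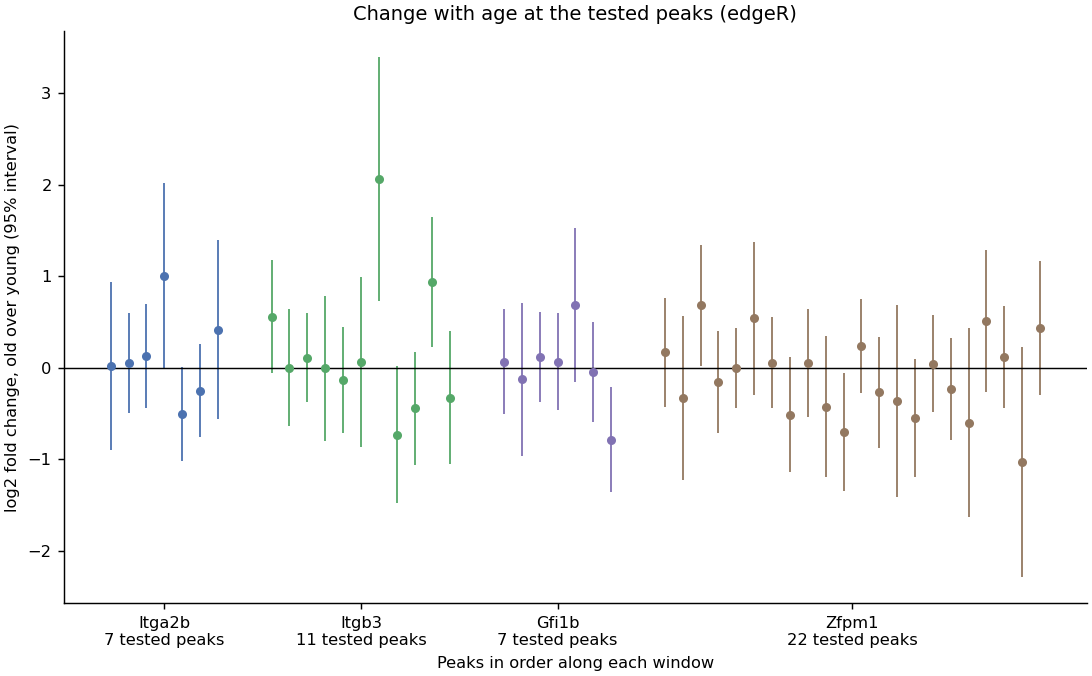
Log2 fold change of old over young for the 47 tested peaks, in order along each window, with 95% intervals from the edgeR fit. Values run from -1.04 to 2.06, and the interval of the highest, a peak of Itgb3, begins at 0.73.

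The peak of each locus with the highest mean CPM over the 5 sets is called its top peak. At Itga2b, the gene for CD41, it lay at chr11:102331050-102331779, with 282 counts, and was found in 14.7% of all cells. It had 33.9 and 28.3 CPM in young 1 and young 2 against 25.4, 25.5 and 25.9 CPM in old 1, old 2 and old 3, so every old set lay below both young sets. The log2 fold change was -0.25 ± 0.252 (SE; edgeR adjusted p = 0.692). The neighbouring peak at chr11:102328217-102329002, with more counts in all (294), had 23.9 and 41.3 CPM in young and 26.2, 26.05 and 18.6 CPM in old sets, and the high value was that of young 2 alone. Its log2 fold change of -0.51 (edgeR adjusted p = 0.335) had the smallest p on the lower side and became 0.04 without young 2. On the higher side, the narrow peak at chr11:102327409-102327703 had 1.99 and 4.49 CPM in young and 7.87, 9.38 and 3.98 CPM in old sets, with old 3 between the young sets. Its log2 fold change was 1.00 with a 95% interval of -0.02 to 2.02 (edgeR adjusted p = 0.337). It reached the count filter through old 1 and old 2 alone, so it could not be tested without either, and the log2 fold change was 1.88 without young 2.

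At Itgb3, the gene for CD61, the top peak lay at chr11:104468911-104470198 and was found in 19.2% of cells. It had 45.8 and 34.1 CPM in young and 33.05, 57.3 and 37.2 CPM in old sets, with old 2 far above the others and the ages overlapping. The log2 fold change was 0.11 ± 0.243 (SE; edgeR adjusted p = 0.886), and it was -0.15 without old 2. The smallest p of the 47 tested peaks belonged to a peak 288 bp wide at chr11:104487349-104487637. It had 0.996 and 1.79 CPM in young and 8.66, 5.21 and 4.65 CPM in old sets, so each old set lay above both young sets. The log2 fold change was 2.06 with a 95% interval of 0.73 to 3.39, and it did not pass (edgeR adjusted p = 0.0731). The peak rested on 55 counts in 45 cells, with 1 and 4 counts in young 1 and young 2 against 33, 10 and 7 in the old sets. It reached the count filter through old 1 and old 2 alone, where it is high, so the filter favoured a peak higher in old and its estimate is no support for a change. Under the settings in which edgeR tested it the adjusted p lay between 0.0549 and 0.276, and the log2 fold change was 2.68 without young 2. It was not tested without old 1, without old 2, with a minimum count of 30, with binarized, filtered or thinned cells, with equal numbers of cells, or with peaks under 300 bp left out.

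A wider Itgb3 peak at chr11:104518719-104519754, singled out after its values were seen, had 5.98 and 10.3 CPM in young and 14.2, 16.7 and 21.3 CPM in old sets. Here too each old set lay above both young sets, with a log2 fold change of 0.94 (edgeR adjusted p = 0.152). In the opposite direction, the peak at chr11:104498250-104498909 had 9.96 and 15.3 CPM in young and 6.82, 6.25 and 11.95 CPM in old sets, with old 3 between the young sets. Its log2 fold change was -0.73 ± 0.372 (SE; edgeR adjusted p = 0.334) and -0.30 without young 2. Of the 11 tested Itgb3 peaks, 5 had a log2 fold change above 0, with a median of -0.003 over the window.

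At Gfi1b, the repressor gene, the top peak lay at chr2:28453208-28454112 and was found in 17.5% of cells. It had 34.9 and 26.5 CPM in young and 34.4, 31.3 and 30.5 CPM in old sets, with all old sets between the 2 young sets. The log2 fold change was 0.12 ± 0.247 (SE; edgeR adjusted p = 0.879), and its sign turned without young 2 (-0.08). The last peak of the window, at chr2:28496107-28497444, had 20.9 and 29.6 CPM in young and 15.999, 17.2 and 11.3 CPM in old sets. Every old set lay below both young sets, and the log2 fold change was -0.79 with a 95% interval of -1.36 to -0.21, which did not pass (edgeR adjusted p = 0.131) and was -0.44 without young 2. This peak was not assigned to Gfi1b or to a neighbouring gene. A window 10 kb shorter at each end leaves it out, together with the first peak. The log2 fold change of the Gfi1b total was then 0.11 rather than -0.01. On the higher side, the peak at chr2:28457649-28458026 had 6.97 and 6.28 CPM in young and 12.6, 5.73 and 12.6 CPM in old sets, where old 2 was the lowest of the 5. Its log2 fold change was 0.68 ± 0.419 (SE; edgeR adjusted p = 0.45).

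At Zfpm1, the gene for FOG-1, the peak at chr8:124804947-124806158 had the highest mean CPM of the 69, not corrected for width, and was found in 24.9% of cells. It had 49.8 and 65.5 CPM in young and 72.1, 55.2 and 45.2 CPM in old sets, with the highest and the lowest value both in old. The means were 57.7 ± 11.1 in young (SD, n = 2) and 57.5 ± 13.6 CPM in old sets (SD, n = 3). In the edgeR fit the ratio of old to young was 0.998 with a 95% interval of 0.738 to 1.35 (edgeR adjusted p = 0.997). The peak at chr8:124797087-124797422 had 17.9 and 8.97 CPM in young and 20.98, 17.7 and 19.9 CPM in old sets, and young 2 stood apart as the low value. Its log2 fold change was 0.68 (edgeR adjusted p = 0.306), with 0.16 without young 2 and 1.14 without young 1. The peak at chr8:124828014-124828467 had 12.95 and 21.5 CPM in young and 11.02, 13.02 and 9.30 CPM in old sets, with old 2 just above young 1. Its log2 fold change was -0.70 (edgeR adjusted p = 0.272) and -0.18 without young 2. The lowest estimate of the 47, -1.04, was at chr8:124873619-124873924 in Zfpm1, a peak of 42 counts that reached the count filter through the young sets alone, and had a standard error of 0.627 (edgeR adjusted p = 0.442).

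Peaks just inside and just outside the windows are given as a description. The last peak inside the Itgb3 window had 1, 1, 11, 3 and 0 counts in young 1, young 2, old 1, old 2 and old 3, and the nearest one beyond it, 3454 bp away, had 2, 10, 26, 13 and 12. At the high end of Gfi1b the peak inside had 21, 66, 61, 33 and 17 counts and the nearest beyond, 9888 bp away, 1, 8, 6, 3 and 1. At the low end of Itgb3 a peak 6666 bp outside had 33, 59, 89, 62 and 57 counts, more than the 20, 28, 70, 45 and 42 of the first peak inside. The last Zfpm1 peak crosses the end of its window and was kept whole.

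The share of a locus carried by its top peak was compared as a measure of whether peaks of a gene move apart. It was 27.4% and 19.3% in the young sets against 18.98%, 18.1% and 24.1% in the old sets at Itga2b. At Itgb3 it was 24.1% and 19.6% in young and 19.1%, 30.1% and 18.9% in old sets. At Gfi1b it was 23.5% and 17.1% in young and 20.4%, 22.5% and 21.4% in old sets, and at Zfpm1 11.5% and 16.3% in young and 16.9%, 14.95% and 11.2% in old sets. The ages overlapped at each of these 4 peaks, and the differences of old minus young were -2.99, 0.868, 1.13 and 0.427 percentage points (exact two-sided permutation p = 0.5, 1.0, 0.8 and 0.8, all 1.0 adjusted over the 4).

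In single cells these loci were sparsely covered. A tested member peak had at least 1 count in 2.802% to 24.856% of cells, and cells with a count held 1.03 to 1.86 counts on average. To compare cells of unequal depth, each was thinned to 1906 counts, which dropped 4 and 5 shallower cells of young 1 and young 2 and 84, 13 and 34 of old 1, old 2 and old 3, leaving 146 cells in the smallest set. In thinned cells, Itga2b had a count in 16.9% and 21.9% of young cells (sets 1 and 2) and in 25.7%, 14.4% and 20.3% of old cells (sets 1, 2 and 3). Itgb3 had one in 25.99% and 25.3% of young and 21.6%, 23.4% and 26.5% of old cells. For both integrin genes, the old sets spread on either side of the young ones.

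Gfi1b had a count in 19.2% and 14.4% of young and 24.3%, 19.1% and 22.1% of old cells, and old 2 lay just below young 1. Young 2 was the lowest of the 5. Zfpm1 had one in 45.2% and 45.9% of young and 57.2%, 44.1% and 51.8% of old cells, and old 2 was the lowest of the 5. The differences of old minus young were 0.704 percentage points at Itga2b, -1.82 at Itgb3, 5.02 at Gfi1b and 5.49 at Zfpm1 (exact two-sided permutation p = 0.9, 0.4, 0.3 and 0.4, adjusted 0.9, 0.533, 0.533 and 0.533 over the 4 loci). Without thinning the same differences were -15.7, -8.82, -12.4 and -10.6 points, and at Itga2b, Itgb3 and Gfi1b the sets then fell in the order of their median counts per cell, from young 2 (68.9%, 70.9% and 68.9%) to old 3 (31.6%, 48.4% and 38.5%). Zfpm1 broke that order, as young 1 (80.1%, median 6133 counts) lay above old 1 (75.8%, median 9623 counts). There both young sets (80.1% and 85.4%) lay above all old sets (75.8%, 71.6% and 69.0%).

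**Figure D4:**
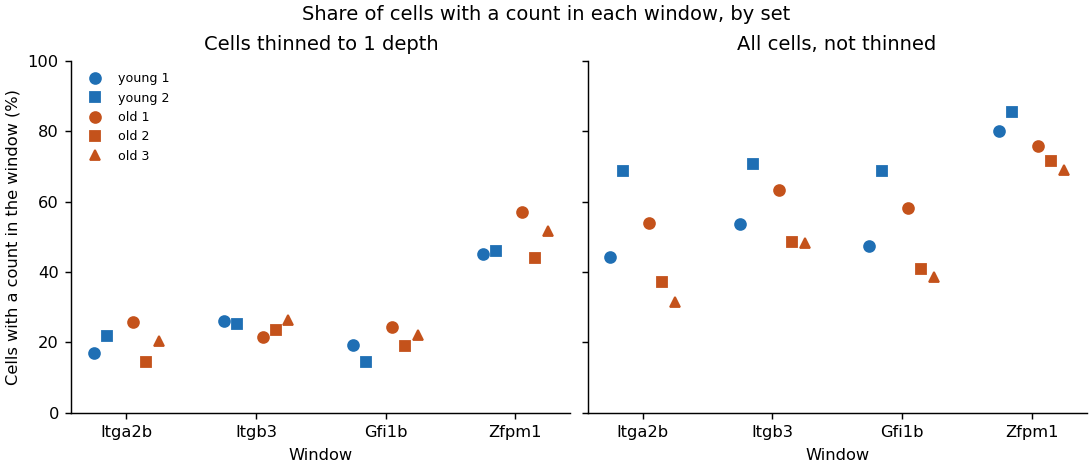
Share of cells with at least 1 count in each window, by set, with all cells thinned to 1906 counts (left) and without thinning (right). In thinned cells the sets of the ages overlap at each of the 4 loci; without thinning young 2, the deepest set, is the highest at every locus (85.4% at Zfpm1).

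The 4 loci were also read together in each thinned cell. The mean number of member peaks with a count was 1.34 and 1.30 in the young sets against 1.53, 1.19 and 1.51 in the old sets, a difference of 0.0902 (exact two-sided permutation p = 0.5). Cells with a count in all 4 loci were rare, between 0.0% and 0.882% of a set, and 18.02% to 31.1% had none in any. A thinned cell had counts at both integrin genes in 4.52% and 4.79% of young and 4.95%, 4.09% and 5.88% of old cells, while the product of the 2 single shares was 4.40%, 5.55%, 5.55%, 3.38% and 5.37%. The joint share lay above the product in 3 sets and below it in the other 2. It rests on only 8 and 7 young cells and 11, 15 and 20 old cells, and was not tested. Joint opening of the receptor's 2 genes is therefore neither shown nor excluded at this depth. For Gfi1b and Zfpm1 the joint share was 7.34%, 4.11%, 13.06%, 10.4% and 12.1%, against products of 8.68%, 6.60%, 13.9%, 8.42% and 11.4%, above in old 2 and old 3 and below in the others.

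For the top peak of each locus, the peaks elsewhere whose detection was most similar over 1252 thinned cells, among 7999 peaks found in at least 5% of them, had weak correlations. The highest were 0.139 for Itga2b with a peak at chr11:77615689-77616629, 0.126 for Itgb3 with chr2:152656191-152657640, 0.11 for Gfi1b with chr2:9800757-9801546 and 0.125 for Zfpm1 with chr17:24986656-24988017. Within the same window, where no minimum share of cells was set, the highest was 0.078, at Gfi1b. It came from 13 peaks compared, with a peak found in only 0.16% of the thinned cells. In counts this sparse, with cells of 5 sets pooled, such values are no finding.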

How the data were processed

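The deposited table of the authors holds a raw count for each peak in each cell, in whole numbers without normalization, as its values show. Per the submitters' processing notes, the build is mm9 and the tools were Trim Galore, FastQC, Bowtie2, SAMtools and Picard. How peaks were called, reads counted and cells filtered is not given in the sources used here. Peaks are named by position, and whether starts count from 0 or 1 is not stated.

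Titles gave the age and set number of each cell. The cells of a set were added up and the 5 columns were fitted in edgeR 4.0.16 under R 4.3.3 (TMM scaling, filterByExpr at min.count 10, robust quasi-likelihood fit, Benjamini-Hochberg over all tested peaks). Locus totals entered the same fit as 4 further rows. CPM is relative to TMM-scaled totals of tested peaks. Standard errors are the log2 fold change over the square root of F. The edgeR step was run on simulated counts with a common dispersion for all peaks and no set effects, which does not measure its power at these peaks. Total counts per set were 1159957 to 4181770. Standard errors of locus totals were 0.189 to 0.195, although their counts ran from 1394 to 4271. Cells were thinned to the 10th percentile of depth.

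Named are, per window, any called peak, the peak of highest mean CPM and the smallest p in each direction. Members, motifs and tests were chosen with earlier results of these data known. No label says that sets of the same number belong together, so set numbers were not taken as pairs. Young 1 with old 1 and young 2 with old 2 deviated from their age's mean with correlations of -0.0758 and -0.00071. These cannot exclude a shared batch, since the deviations of the 2 young sets mirror each other. No mm9 annotation was used. Alternatives are given in the closing section.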

Additional observations from a re-analysis of the deposited data

How the results depend on the processing

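No member peak was called under any of the 17 alternatives, among them a threshold of 0.01, which could call none once 0.05 called none. Few peaks of the whole table were called in several of them. DESeq2 called 423 of the 115227 peaks it fitted, not all of which had an adjusted p. Without a count filter edgeR called 2583 of 115227, and with thinned cells 214 of 13903, where only 14 members were tested. At such shares, 0 calls among so few peaks is no finding about the members. For the named peaks, 165 of 182 alternative values kept their direction and their side of the threshold and 17 turned direction. The same counts were 63 and 25 of 88 for locus totals, 26 and 10 of 36 for shares of cells, 17 and 7 of 24 for the shares of the top peaks, and 26 and 10 of 36 for pairs of loci. The tallies for named peaks and locus totals include the threshold of 0.01 for each of them. It reuses the main value and could only come out the same, so it shows no stability. No peak or locus total passed the edgeR test under any alternative; the exact permutation of the other measures cannot pass with 5 sets or fewer. Scaling moved the centre: with library totals in place of TMM the median log2 fold change of all tested peaks was 0.09 rather than -0.01, and that of the members 0.12.

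Locus totals (log2 of old over young) turned to 0.0123 (Itga2b), 0.0872 (Gfi1b) and 0.0404 (Zfpm1) with library totals, to 0.0011, 0.0761 and 0.0301 with a minimum count of 30, and to 0.0494, 0.424 and 0.1285 with thinned cells. Gfi1b also turned to 0.0009 with no count filter, 0.0386 with binarized cells, 0.0164 with the cell filter (2000 to 40000 counts) and 0.1103 with a window 10 kb shorter at each end, where Itgb3 gave -0.0238. With the set number as a replicate block the totals were 0.031 (Itga2b), -0.0041 (Itgb3), 0.0116 (Gfi1b) and -0.0704 (Zfpm1). That block called 1102 peaks of the table against 1844 without it, and 0 members in both. Leaving out 1 set in turn gave -0.1838 to 0.0815 at Itga2b, -0.002 to 0.1262 at Itgb3, -0.0747 to 0.0589 at Gfi1b and -0.0867 to 0.0141 at Zfpm1.

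Among named peaks, the highest Itgb3 peak turned to -0.2257 with thinned cells. The highest Zfpm1 peak, at -0.003, turned to 0.0958 with library totals, 0.0002 with RLE factors, 0.0055 with no count filter, 0.0832 with a minimum count of 30, 0.2249 binarized, 0.00 with the cell filter, 0.1304 with thinned cells, 0.003 without peaks under 300 bp and 0.1248 with the replicate block. Leaving out 1 set gave -0.7685 to 0.0402 at the Itga2b peak starting at 102328217 (0.0402 without young 2), -0.1463 to 0.3338 at the highest Itgb3 peak (below 0 without young 2, at -0.0987, and without old 2), -0.0801 to 0.2939 at the highest Gfi1b peak and -0.1909 to 0.2669 at the highest Zfpm1 peak (0.051 without old 2, 0.1599 without old 3). Without young 2 the Itgb3 peak starting at 104498250 gave -0.2956, and the Zfpm1 peaks starting at 124797087 and 124828014 gave 0.1635 and -0.1815.

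Shares of cells turned to -15.7, -12.4 and -10.6 points without thinning at Itga2b, Gfi1b and Zfpm1, to -0.287 (Itga2b) and 5.40 (Itgb3) at 4000 counts, and to -0.777 (Itga2b), 1.15 (Itgb3) and -0.484 (Zfpm1) when at least 2 peaks had to have a count. Without 1 set, Itga2b ranged from -2.07 to 3.55 points. Shares of the highest peak ranged, without 1 set, from -7.04 to 1.05 points at Itga2b, -2.85 to 3.12 at Itgb3, -2.07 to 4.32 at Gfi1b and -2.0002 to 2.8549 at Zfpm1, and Gfi1b gave -0.74 binarized. Log2 ratios of loci ranged, without 1 set, from -0.3058 to 0.0662 for Itga2b to Itgb3, -0.1954 to 0.0263 for Itga2b to Gfi1b, -0.2014 to 0.1555 for Itga2b to Zfpm1, -0.04 to 0.1947 for Itgb3 to Gfi1b and -0.0444 to 0.1292 for Gfi1b to Zfpm1. The cause of these turns was not tested. The young age rests on 2 sets. Leaving out young 2 turned values at all 4 loci, though not the Zfpm1 total (-0.0867). Leaving out other sets turned values too. The locus total was 0.048 at Itga2b without old 3 and 0.0589 at Gfi1b without old 2. At Zfpm1 it was 0.0052 without young 1.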
